A study of Mus musculus with 25 samples.

Results

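The genes examined were 9 enzymes of the methionine cycle and of cytosolic one-carbon metabolism: Mat1a, Mat2a, Gnmt, Bhmt, Bhmt2, Ahcy, Pemt, Shmt1 and Mthfd1. They were chosen by symbol and each was paired with 1 of the 41388 Ensembl gene identifiers in the count files. All 9 were among the 14065 genes kept for testing. The libraries were made from livers of 20-week-old male C57B/6J mice, 1 library per mouse. The mice were Sirt1 LoxP/LoxP littermates, either without Cre (WT) or with Cre driven by the albumin promoter (LKO), which acts in hepatocytes. They were grown to about 8 weeks of age, and every mouse received an AAV8 virus, either an empty vector (EV) or NAMPT behind the hepatocyte-selective TBG promoter. The diets were fed for 12 weeks. Chow was fed to 1 group, WT EV (n = 3). Western diet (WD) was fed to the other 4: LKO NAMPT and LKO EV with 5 mice each, and WT NAMPT and WT EV with 6 mice each, so neither the LKO genotype nor the NAMPT vector was measured on chow. The titles name the insert as NAMPT, whereas a general treatment text names SIRT1, and the titles were followed.

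The methionine cycle turns methionine into S-adenosylmethionine, the donor of most methyl groups in the cell. MAT1A makes it in adult hepatocytes, while MAT2A is the form of most other tissues and of growing liver. Methyltransferases then use the methyl group and leave S-adenosylhomocysteine. In the liver the large consumers are GNMT, which methylates glycine, and PEMT, which turns phosphatidylethanolamine into phosphatidylcholine. AHCY splits S-adenosylhomocysteine into adenosine and homocysteine. BHMT carries a methyl group from betaine back to homocysteine, and BHMT2 does the same from S-methylmethionine. The folate branch supplies one-carbon units: SHMT1 moves them between serine and glycine, and MTHFD1 interconverts the folate forms that carry them. NAMPT makes nicotinamide mononucleotide, a precursor of NAD, and SIRT1 is an NAD-dependent protein deacetylase.

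Each library held 20166175 to 32937326 gene counts, and levels are given as CPM, counts relative to the library total, after TMM scaling. The summed CPM of 5 hepatocyte markers (Alb, Ttr, Apoa1, Tat, Cyp2e1) was 42870 to 73462 in every library, while 3 adipocyte and 3 kidney tubule markers summed to at most 2.79 and 0.215 CPM. Sirt1, the targeted gene, did not set the libraries labelled SIRT1 LKO apart. On WD with the empty vector its level was 8.86 ± 0.57 CPM in WT (SD, n = 6) and 8.57 ± 1.34 CPM in LKO (SD, n = 5), and with NAMPT it was 8.58 ± 0.62 CPM in WT (SD, n = 6) and 9.82 ± 1.36 CPM in LKO (SD, n = 5), with 144 to 369 counts in every library. The second difference, LKO minus WT, was 0.19 on the log2 scale, with an adjusted p of 0.237 in limma. Counts per gene pool all exons and do not show the deleted part on its own, so every direction for the libraries labelled LKO rests on their labels. Nampt averaged 47.4 ± 6.46 CPM in WT mice given the empty vector on WD and 59.5 ± 10.6 CPM in those given NAMPT (SD, n = 6 each), with an adjusted p of 0.144 in the limma fit. In the libraries labelled LKO it averaged 56.1 ± 12.0 CPM with the empty vector and 79.9 ± 28.4 CPM with NAMPT (SD, n = 5 each), where 1 library stood at 127 CPM, with an adjusted p of 0.403. Nampt was thus higher with the NAMPT vector in both genotypes, which is the direction of the labels. The fitted log2 change was 0.34 ± 0.16 (SE) in WT, with an unadjusted p of 0.04 in limma. It was 0.41 ± 0.16 (SE) in the libraries labelled LKO, with an unadjusted p of 0.017. The groups overlapped in both genotypes, so the Nampt level of a single library does not show its vector. For single libraries the NAMPT groups therefore also rest on their labels. The paper also measured NAMPT in liver by qPCR when it optimized this vector. The library of WT NAMPT replicate 2 stood apart: it had the highest TMM factor, 1.29, the lowest share of counts from mitochondrial genes, 4.07%, and 8 of the 9 members below the range of the 6 WD WT EV libraries. WT NAMPT replicates 3 and 4, at 4.17% and 4.55%, were also below the mitochondrial range of WT EV (4.83% to 8.10%), and replicate 6, at 8.57%, was above it. WT NAMPT replicates 1, 3, 4 and 5 had TMM factors of 1.12, 1.10, 1.03 and 1.025, above every WT EV library (at most 1.015). The library labelled LKO NAMPT replicate 3 held 12.3% mitochondrial counts, the highest share of all.

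The members lie on 7 chromosomes of the mouse genome (GRCm38), and 2 pairs share a chromosome. Bhmt (ENSMUSG00000074768, chromosome 13 from 93616891 to 93637961) and Bhmt2 (ENSMUSG00000042118, chromosome 13 from 93655720 to 93674302) stand in tandem on the minus strand with 17758 bases between them. The start of Bhmt2 lies 131 bases from the start of Dmgdh, the dimethylglycine dehydrogenase that acts after BHMT, which runs the other way. Shmt1 (ENSMUSG00000020534) occupies chromosome 11 from 60788104 to 60811718 and Pemt (ENSMUSG00000000301) occupies it from 59970614 to 60046489. Mat1a (ENSMUSG00000037798) spans chromosome 14 from 41105381 to 41124412 and Mat2a (ENSMUSG00000053907) spans chromosome 6 from 72432799 to 72439558. Gnmt (ENSMUSG00000002769) is on chromosome 17 from 46725664 to 46729168, Ahcy (ENSMUSG00000027597) on chromosome 2 from 155059310 to 155074497, and Mthfd1 (ENSMUSG00000021048) on chromosome 12 from 76255232 to 76319820.

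Promoter windows from RefSeq (GRCm38.p6, 250 bases before to 50 bases after the annotated start) were found for 8 of the 9 members, all but Mat1a. The windows of Bhmt, Bhmt2, Shmt1, Gnmt and Mthfd1 are shown because these members passed the test in the NAMPT or the diet comparison below, and they are written 5′ to 3′ on the strand of the gene. Capitals mark matches, on either strand, to AGGTCA (a nuclear receptor half-site), to CCAAT (the CCAAT box), to GGGCGG (a GC box) or to TGACG (a cAMP response half-site). The TATA box TATAAA, the E-box CACGTG and the HNF1 half-site GTTAAT were also searched and did not occur in these 5 windows.
Bhmt, chr13:93637709-93638008 (minus strand): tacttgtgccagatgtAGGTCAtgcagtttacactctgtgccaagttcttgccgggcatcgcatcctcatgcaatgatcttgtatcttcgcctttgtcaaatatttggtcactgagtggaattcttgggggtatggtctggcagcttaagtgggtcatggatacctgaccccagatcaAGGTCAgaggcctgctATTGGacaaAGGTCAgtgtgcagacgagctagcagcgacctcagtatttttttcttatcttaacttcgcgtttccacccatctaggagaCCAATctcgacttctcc
Bhmt2, chr13:93674253-93674552 (minus strand): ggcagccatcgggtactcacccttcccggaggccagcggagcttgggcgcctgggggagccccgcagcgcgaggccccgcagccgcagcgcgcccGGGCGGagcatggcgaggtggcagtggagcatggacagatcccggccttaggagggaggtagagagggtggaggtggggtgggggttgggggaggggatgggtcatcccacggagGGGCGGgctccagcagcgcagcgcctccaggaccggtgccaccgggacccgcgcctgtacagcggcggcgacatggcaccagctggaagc
Shmt1, chr11:60811216-60811515 (minus strand): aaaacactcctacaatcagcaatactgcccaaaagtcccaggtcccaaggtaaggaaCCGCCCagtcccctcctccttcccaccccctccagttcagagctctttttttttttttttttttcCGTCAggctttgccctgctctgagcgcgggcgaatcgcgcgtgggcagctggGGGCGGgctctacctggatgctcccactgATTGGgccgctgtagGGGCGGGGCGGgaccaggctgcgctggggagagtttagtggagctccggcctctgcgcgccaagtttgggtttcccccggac
Gnmt, chr17:46729116-46729415 (minus strand): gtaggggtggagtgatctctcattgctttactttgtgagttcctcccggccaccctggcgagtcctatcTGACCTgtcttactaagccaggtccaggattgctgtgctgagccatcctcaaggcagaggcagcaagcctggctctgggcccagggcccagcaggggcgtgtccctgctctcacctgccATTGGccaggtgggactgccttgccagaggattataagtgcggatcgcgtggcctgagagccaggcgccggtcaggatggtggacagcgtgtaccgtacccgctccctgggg
Mthfd1, chr12:76254982-76255281 (plus strand): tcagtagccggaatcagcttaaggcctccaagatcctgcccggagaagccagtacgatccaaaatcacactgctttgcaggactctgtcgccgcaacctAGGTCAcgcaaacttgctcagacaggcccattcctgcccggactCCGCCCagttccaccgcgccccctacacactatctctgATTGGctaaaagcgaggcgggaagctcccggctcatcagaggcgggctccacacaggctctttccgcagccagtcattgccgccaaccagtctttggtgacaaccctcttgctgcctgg

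The Bhmt window held 3 copies of AGGTCA, starting at -234, -72 and -47 from the RefSeq start. The Ensembl gene spans given above begin farther upstream for Bhmt and Shmt1, so on that annotation the copies at -72 and -47 and the whole Shmt1 window lie inside the genes. At least 1 copy occurred in 16.3% of the 32851 windows in the table, and 3 or more in 0.183%. Gnmt and Mthfd1 each held 1 copy, at -181 and -151. CCAAT occurred in 4 of the 5 windows, at -47 in Shmt1, -56 in Bhmt, -62 in Gnmt and -69 in Mthfd1, and in 37.4% of all windows. Bhmt held another CCAAT at 34 bases after the start. GGGCGG occurred 2 times in Bhmt2, 4 times in Shmt1, where the last 2 copies overlap by 1 base, and 1 time in Mthfd1, and in 35.7% of all windows. TGACG occurred in Shmt1 and in 20.8% of all windows. The Bhmt2 window was the richest in CG among the 5 with 26 CG dinucleotides, against 8 in the Bhmt window and a median of 7 over all windows, and it contains the start of Dmgdh. The windows are given as sequence context, and no binding or chromatin was measured in these mice.

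Some members share sequence with other genes, which matters because the reads were 50 bases long and those aligned to 1 place were counted. Of all 50-base stretches of Ahcy transcripts, 68.7% also occur in transcripts of other genes, most of them in Gm4737, and for Bhmt the share is 26.1%, most of it with Gm5096. The reads counted to 2 copies, Gm4737 and Gm9826, amounted to 3.23% to 4.46% of the Ahcy counts in a library. Those counted to Gm5096 and Bhmt-ps1 amounted to 3.55% to 5.85% of the Bhmt counts. The split between Ahcy or Bhmt and these copies is uncertain. Bhmt and Bhmt2 have 10 such stretches in common. Mat1a, Gnmt and Mthfd1 share no such stretch with any gene. Exons of Bhmt overlap Gm15622 by 187 bases and exons of Shmt1 overlap Smcr8 by 184 bases on the opposite strand, and whether counting used the strand is not stated.

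In WD WT EV liver the members differed widely in level when scaled to exon length. Gnmt was the highest at 872 ± 267 CPM per kb (SD, n = 6) and Mat1a followed at 743 ± 85.3 CPM per kb (SD, n = 6). Bhmt stood at 497 ± 144 CPM per kb (SD, n = 6) and Ahcy at 379 ± 99.7 CPM per kb (SD, n = 6). Reads that match several places were not counted, so the Bhmt and Ahcy levels may be too low and their rank is uncertain. The library ranges of Gnmt and Mat1a, of Mat1a and Bhmt, and of Bhmt and Ahcy overlapped, so these neighbours in the order were not separated beyond their spread. Pemt was at 120 ± 7.15, Bhmt2 at 78.8 ± 11.2, Mthfd1 at 61.5 ± 7.05, Shmt1 at 40.7 ± 4.96 and Mat2a at 18.9 ± 2.03 CPM per kb (SD, n = 6). Among these the ranges of Bhmt2 and Mthfd1 overlapped and the other neighbours did not, including Ahcy and Pemt. Mat1a, the hepatocyte form, was 34.9 to 44.3 times Mat2a per length in these 6 livers. On chow the order at the top had a wider gap, with Gnmt at 1575 ± 248 and Mat1a at 691 ± 158 CPM per kb (SD, n = 3).

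**Figure D1:**
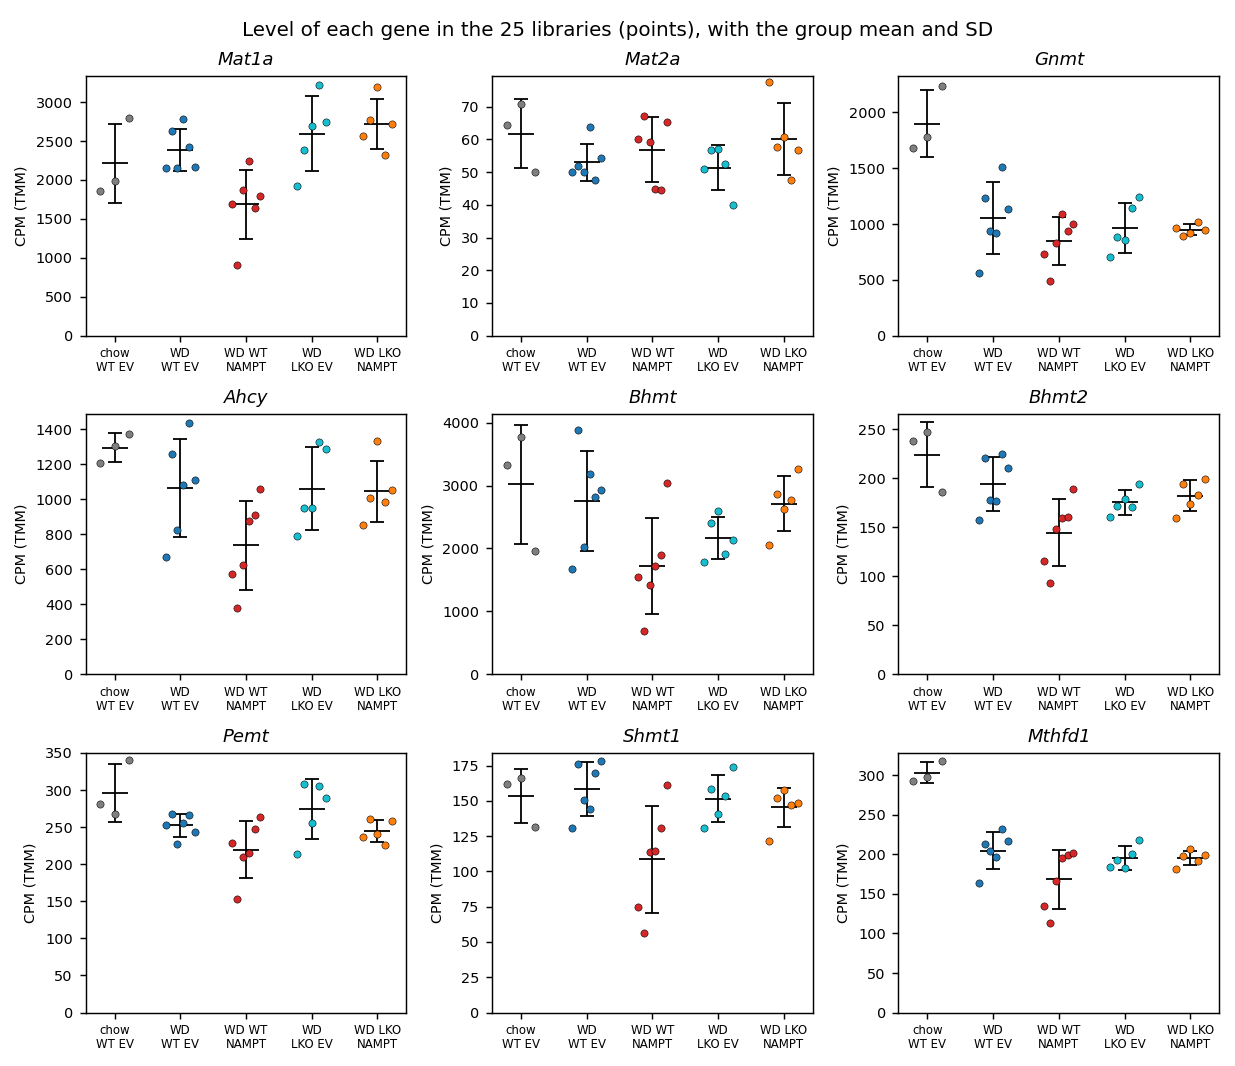
Level of each of the 9 genes in CPM after TMM scaling (vertical axes, linear from 0) in the 5 groups, with 1 point per library, a bar at the group mean and whiskers of 1 SD. Gnmt and Mthfd1 are higher in all 3 chow libraries than in any WD WT EV library, and Bhmt, Bhmt2 and Shmt1 have their lowest libraries in the WD WT NAMPT group.

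The first comparison asked what the NAMPT vector changed in WT liver on WD. Bhmt and Bhmt2 of homocysteine remethylation and Shmt1, the cytosolic serine-glycine enzyme, were lower with NAMPT, while the other 6 members did not pass the test. The threshold does not set these enzymes apart in size. Ahcy at -0.51 and Mat1a at -0.40 on the log2 scale, both not called, stood beside Bhmt2 at -0.40. In all, 3 of 9 members were called at an adjusted p of 0.05 or less, all lower, where 13.4% of all genes tested were called and 5.77% were called lower. The median log2 fold change of the 9 members was -0.40 against 0.00 over all genes. All 9 values lay below 0 in this fit and 7 to 9 of them did in the 10 alternative settings. Mat2a lay above 0 in 7 of those, among them scaling by library size only (0.14), which moved the median of all genes up by 0.15, and Gnmt lay above 0 in 2, among them 2 surrogate variables (0.10).

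Bhmt ranged from 1679 to 3892 CPM in WT EV (median 2874, n = 6) and from 692 to 3039 CPM in WT NAMPT (median 1634, n = 6). It fell by 0.80 ± 0.21 on the log2 scale (SE), to 0.58 times its WT EV level, with an adjusted p of 0.0171 (limma, Benjamini-Hochberg over all genes). The ranges overlapped, with WT NAMPT replicate 6 at 3039 CPM and the other 5 WT NAMPT livers at or below 1902 CPM. Its paralogue Bhmt2 ranged from 157 to 225 CPM in WT EV (median 194, n = 6) and from 93.4 to 189 CPM in WT NAMPT (median 154, n = 6). It fell by 0.40 ± 0.11 on the log2 scale (SE), with an adjusted p of 0.0189. WT NAMPT replicates 1, 2 and 3 lay below the WT EV range of Bhmt2 and the other 3 lay inside it.

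Shmt1 ranged from 131 to 178 CPM in WT EV (median 160, n = 6) and from 56.2 to 161 CPM in WT NAMPT (median 114, n = 6). It fell by 0.54 ± 0.13 on the log2 scale (SE), with an adjusted p of 0.0129. In WT NAMPT 5 of the 6 livers were at or below the lowest WT EV liver, and replicate 6 was the exception. No member separated the 2 groups completely, which 0.96% of all genes did.

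Of the enzymes that make S-adenosylmethionine, Mat1a was at 2384 ± 274 CPM in WT EV and 1688 ± 441 CPM in WT NAMPT (SD, n = 6 each). Its log2 fold change was -0.40 ± 0.14 (SE), and the adjusted p of 0.0617 missed the threshold. The WT NAMPT livers included the lowest Mat1a value of the series, 904 CPM in replicate 2. Mat2a was at 53.0 ± 5.69 and 56.9 ± 9.90 CPM (SD, n = 6 each). Although this mean was higher with NAMPT, the fit with sample weights gave a log2 change of -0.01 ± 0.12 (SE). Its 95% interval was -0.25 to 0.24, and without the weights the change was 0.088. The ratio of Mat1a to Mat2a per length ran from 11.7 to 43.7 in WT NAMPT livers, beside 34.9 to 44.3 in WT EV, and is given as a description.

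Ahcy, which removes the methylation product, was at 1062 ± 280 CPM in WT EV and 736 ± 252 CPM in WT NAMPT (SD, n = 6 each). The fitted log2 fold change was -0.51 ± 0.18 (SE), and the adjusted p was 0.0587. Among the methyl group consumers, Pemt had a log2 change of -0.22 ± 0.09 (SE, adjusted p of 0.111) and Gnmt had -0.19 ± 0.18 (SE) with an adjusted p of 0.5. Mthfd1, the trifunctional folate enzyme, had -0.22 ± 0.09 (SE) with an adjusted p of 0.12. Before adjustment 7 of the 9 members had a p of 0.05 or less, all but Gnmt and Mat2a, where 30.3% of all genes did.

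**Figure D2:**
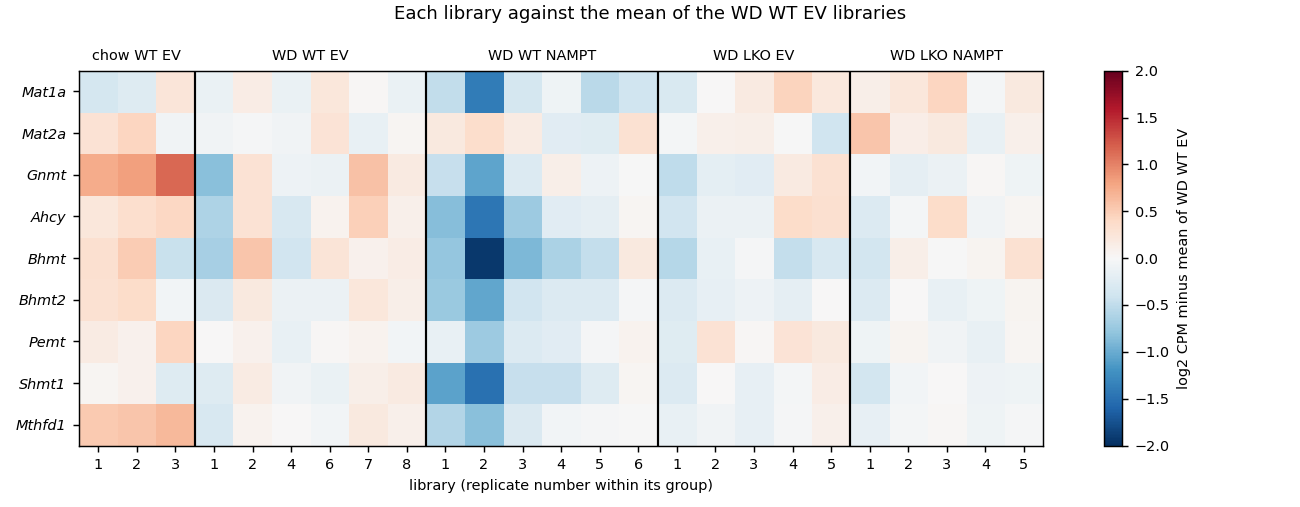
Each gene (rows) in each of the 25 libraries (columns, replicate numbers within groups), coloured by log2 CPM minus the mean of the 6 WD WT EV libraries on a scale from -2 to 2. In WD WT NAMPT the columns of replicates 1, 2 and 3 are blue in most rows, replicate 6 is close to the WD WT EV mean, and Gnmt and Mthfd1 are red in the chow columns.

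The WT NAMPT livers were not alike. Replicate 2 had 8 of the 9 members below the WD WT EV range and replicates 1 and 3 had 6 each. Replicates 4 and 5 had 3 each and replicate 6 had 1. The summed level of the 9 genes was 2944 to 7769 CPM in WT NAMPT and 5821 to 9940 CPM in WT EV. The 3 calls remained without replicate 2, with adjusted p of 0.0443 for Bhmt, 0.0486 for Bhmt2 and 0.0323 for Shmt1. They depended on the fit. Of the 10 alternative settings, Bhmt was called in 3, Bhmt2 in 4 and Shmt1 in 5. DESeq2 lost Bhmt (adjusted p of 0.0508) and called Mat1a, and Bhmt was also lost with low-count genes left in (adjusted p of 0.0559) and without WT EV replicate 6 (adjusted p of 0.0576). In all, 5 of the 10 alternative settings called 0 of the 9, among them limma without sample quality weights, the edgeR quasi-likelihood test, a fit on only the groups compared, and 2 surrogate variables, as did leaving out WT EV replicate 2 or WT NAMPT replicate 3. With 2 surrogate variables the log2 fold changes shrank to -0.28 for Bhmt, -0.15 for Bhmt2 and -0.20 for Shmt1. The weights ranged from 0.336 (replicate 6) and 0.401 (replicate 2) to 1.85 (replicate 4) within WT NAMPT.

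Markers of other cells moved in the same comparison. Of 8 macrophage markers 4 were called higher (Cd5l, Adgre1, Cd68 and Trem2), and their summed level was 232 to 716 CPM in WT NAMPT against 247 to 364 CPM in WT EV. Of 6 stellate cell and fibroblast markers 4 were called higher (Col1a1, Col1a2, Col3a1 and Des), with sums of 191 to 668 CPM against 184 to 382 CPM. Of 4 neutrophil markers 2 were called higher (S100a9 and Csf3r), with sums of 3.50 to 26.1 CPM against 2.73 to 7.66 CPM. The hepatocyte markers summed to 42870 to 61579 CPM in WT NAMPT and 49651 to 67905 CPM in WT EV, with 1 of 5 called lower (Cyp2e1). Of 6 pericentral hepatocyte markers 1 was called lower (Oat), with a list median of -0.53 on the log2 scale. Their sums were 1238 to 3751 CPM in WT NAMPT against 3161 to 4387 CPM in WT EV, with WT NAMPT replicates 1 to 4 below the WT EV range. Of 5 endothelial markers 1 was called higher (Pecam1) and 1 lower (Clec4g), while the periportal, lymphocyte and cholangiocyte lists held no called gene. Of 13 clock genes 3 were called lower (Arntl, Npas2 and Clock). With a clock-gene score as covariate 7 of the 9 members were called. Calls among all genes moved from 1890 in the main fit to between 79 and 2610 over the 10 alternative settings. The 7 are therefore not read as a result about the members. This score ran from -0.26 to 3.62 in WT NAMPT. In WT EV replicates 1, 2 and 4 lay between -2.46 and -2.34 and replicates 6, 7 and 8 between 0.57 and 2.90. In bulk liver, fewer cells of a type and less RNA per cell cannot be told apart, and the part of these markers in the fall of Bhmt, Bhmt2 and Shmt1 was not tested.

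The same vector was then compared in the libraries labelled SIRT1 LKO. None of the 9 members was called (0 of 9, limma), where 0.00711% of all genes were called, and 0 of 9 had an unadjusted p of 0.05 or less, where 9.63% of all genes did. The edgeR quasi-likelihood test and DESeq2 also called 0. Bhmt stood at 1781, 2398, 2597, 1905 and 2131 CPM in LKO EV and at 2059, 2867, 2624, 2765 and 3258 CPM in LKO NAMPT. The groups overlapped, with a log2 fold change of 0.35 ± 0.22 (SE), a 95% interval of -0.10 to 0.81 and an adjusted p of 0.64. Shmt1 stood at 131, 158, 141, 153 and 174 CPM in LKO EV and at 122, 152, 158, 147 and 149 CPM in LKO NAMPT. These groups overlapped too, with a log2 fold change of -0.04 ± 0.13 (SE) and a 95% interval of -0.32 to 0.23. The other 7 members ran from -0.14 (Pemt) to 0.15 (Mat2a), and the signs of Gnmt and Mthfd1, at 0.01 each, changed with the fit. An adjusted p above the threshold does not show that the vector left these genes unchanged.

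Whether the vector acted differently in the 2 genotypes was tested directly as an interaction, the log2 fold change in LKO minus that in WT. None of the 9 members was called (0 of 9, limma), where 0.00711% of all genes were, and the edgeR quasi-likelihood test and DESeq2 also called 0. With the clock-gene score as covariate Bhmt was called (adjusted p of 0.0462). This score was uneven within groups. It lay at -2.185 and -1.69 in LKO EV replicates 1 and 2 and between 1.91 and 3.13 in replicates 3, 4 and 5. In LKO NAMPT it ran from -1.24 to 3.12. The background was itself unsteady: 1 gene was called in all, but 676 when LKO NAMPT replicate 1 was left out, and 366 or 638 when the library dropped was replicate 5 or replicate 6 of WT NAMPT. Before adjustment 4 of 9 members had a p of 0.05 or less, where 21.2% of all genes did. These were Bhmt, Bhmt2, Shmt1 and Mat1a. The difference was 1.15 ± 0.30 (SE) for Bhmt, with a 95% interval of 0.53 to 1.77, an unadjusted p of 0.000837 and an adjusted p of 0.0745 in limma. It was 0.49 ± 0.15 (SE) for Bhmt2 (adjusted p of 0.095), 0.50 ± 0.18 (SE) for Shmt1 (adjusted p of 0.138) and 0.46 ± 0.21 (SE) for Mat1a (adjusted p of 0.198). All 9 differences were above 0 in this fit, from 0.08 to 1.15, and 8 or 9 were in each alternative setting, with Pemt at -0.07 under scaling by library size only and at -0.10 with 2 surrogate variables. Bhmt passed the threshold when WT NAMPT replicate 5, WT NAMPT replicate 6 or LKO NAMPT replicate 1 was left out, and Bhmt2 passed it without WT NAMPT replicate 6.

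**Figure D3:**
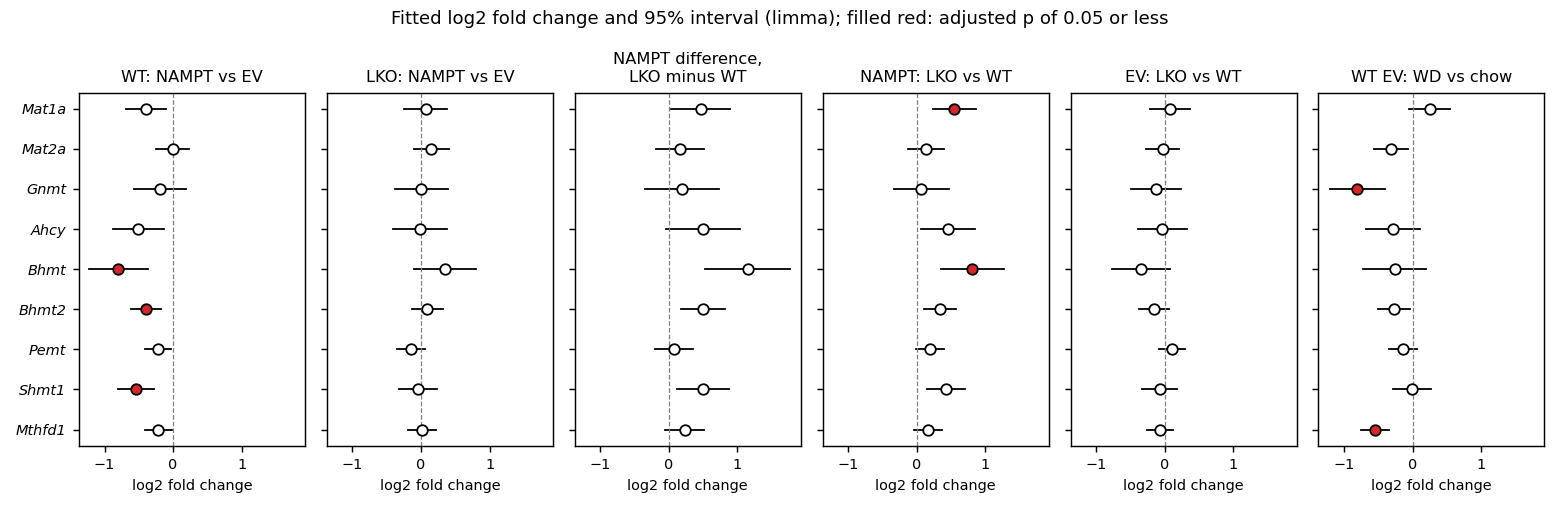
Fitted log2 fold change (points) with its 95% interval (lines) for the 9 genes in the 6 comparisons, filled red where the adjusted p was 0.05 or less. Red points are Bhmt, Bhmt2 and Shmt1 for NAMPT against EV in WT, Mat1a and Bhmt for LKO against WT under NAMPT, and Gnmt and Mthfd1 for WD against chow.

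Between the 2 NAMPT groups on WD, the libraries labelled LKO held more Mat1a and Bhmt than WT. This comparison shares its WT NAMPT livers with the first one, so the 2 are not independent. A total of 2 of 9 members were called, both higher, where 7.96% of all genes were called and 4.18% were called higher. Mat1a, the hepatocyte S-adenosylmethionine synthetase, ranged from 904 to 2246 CPM in WT NAMPT (median 1740, n = 6). In LKO NAMPT it stood at 2567, 2772, 3191, 2315 and 2725 CPM. The groups did not overlap, as in 1.39% of all genes, and Mat1a was the 1 member of which this was true. It rose by 0.54 ± 0.15 on the log2 scale (SE), or 1.46-fold, with an adjusted p of 0.0336. Bhmt averaged 1720 ± 768 CPM over the WT livers (SD, n = 6) and 2714 ± 436 CPM over the LKO livers (SD, n = 5). It rose by 0.81 ± 0.22 on the log2 scale (SE), or 1.75-fold, with an adjusted p of 0.0324.

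Before adjustment 5 of 9 members had a p of 0.05 or less, where 28.6% of all genes did. Shmt1 and Bhmt2 had log2 fold changes of 0.42 ± 0.14 and 0.34 ± 0.11 (SE) with adjusted p of 0.0532 and 0.062. The other 5 members ran from 0.07 (Gnmt) to 0.46 (Ahcy, adjusted p of 0.113), the Gnmt value turned to -0.04 under scaling by library size only, and that of Mat2a to -0.017 with 2 surrogate variables. Both calls were lost without WT NAMPT replicate 2 (adjusted p of 0.0676 for Mat1a and 0.0717 for Bhmt), without WT NAMPT replicates 1 or 3, and without LKO NAMPT replicates 2, 3 or 5. Both were also lost in 5 of the 10 alternative settings: without sample quality weights, in the edgeR quasi-likelihood test, with low-count genes left in, with only the groups compared, and with 2 surrogate variables, where Bhmt was at 0.44 and Mat1a at 0.51. DESeq2 kept Mat1a and lost Bhmt. Of the 6 pericentral markers 3 were called higher in the same comparison (Glul, Oat and Slc1a2), with sums of 2179 to 4887 CPM in LKO NAMPT against 1238 to 3751 CPM in WT NAMPT, while Cyp2e1 was called higher and Tat lower among the 5 hepatocyte markers. The neutrophil marker Csf3r (1 of 4) and the cholangiocyte marker Sox9 (1 of 5) were called lower, with list medians of -1.11 and -0.68 on the log2 scale. The macrophage and stellate cell lists had medians of -0.66 each with no gene called. Their part in the Mat1a and Bhmt values was not tested.

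With the empty vector, livers labelled LKO were not distinguished from WT livers by any of the 9 genes. Members called were 0 of 9 (limma), where 0.00711% of all genes were, and 0 of 9 had an unadjusted p of 0.05 or less, where 6.33% of all genes did. The edgeR quasi-likelihood test and DESeq2 also called 0. The values ran from -0.34 (Bhmt, 95% interval -0.76 to 0.08) to 0.11 (Pemt, 95% interval -0.08 to 0.30). The interval of Mat1a, at 0.08 ± 0.14 (SE), was -0.21 to 0.37, and that of Gnmt, at -0.13 ± 0.18 (SE), was -0.49 to 0.23.

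In the diet comparison, WD against chow in WT EV liver, Gnmt, the glycine methyltransferase, and Mthfd1, the trifunctional folate enzyme, were lower on WD. A total of 2 of 9 members were called, both lower, where 22% of all genes were called and 12% were called lower. The members' share is thus close to that of all genes, and nothing about the members as a group is read from it. The median log2 fold change of the members was -0.27, with 8 of 9 below 0 in this fit and 6 to 9 in the alternative settings. This comparison shares its WD WT EV livers with the first.

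Gnmt stood at 1679, 1778 and 2240 CPM in the 3 chow livers and at 565, 1231, 938, 923, 1513 and 1138 CPM in the 6 WD WT EV livers. Every chow liver was above every WD liver. Gnmt fell by 0.81 ± 0.19 on the log2 scale (SE), to 0.57 times the chow level, with an adjusted p of 0.00449. Mthfd1 stood at 293, 298 and 318 CPM on chow and between 164 and 232 CPM on WD (median 208, n = 6). It fell by 0.55 ± 0.10 on the log2 scale (SE), to 0.68 times the chow level, with an adjusted p of 0.00041. These 2 members had groups that did not overlap, as did 16.1% of all genes. Both were called in all 10 alternative settings; leaving out chow replicate 2 ended the call of Gnmt (adjusted p of 0.0592), and Mthfd1 was called in all 9 fits that left out 1 library.

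The remaining members were not called on this contrast, and 4 of 9 had an unadjusted p of 0.05 or less, where 35.1% of all genes did. Mat2a had a log2 change of -0.31 ± 0.12 (SE, adjusted p of 0.0689), and Bhmt2 had -0.27 ± 0.11 (SE) with an adjusted p of 0.0867. Mat1a was at 2215 ± 506 CPM on chow (SD, n = 3) and 2384 ± 274 CPM on WD (SD, n = 6), or a log2 change of 0.25 ± 0.15 (SE). The Gnmt to Mat1a ratio per length was 2.13 to 2.40 in the 3 chow livers and 0.698 to 1.66 in the 6 WD WT EV livers. The clock genes also differed between these groups. A score over 13 clock genes ran from -7.85 to -4.56 on chow and from -2.46 to 2.90 in WD WT EV. These ranges do not overlap, so a fit with the score as covariate cannot tell clock state from diet. In that fit Gnmt was at -1.44 and Mthfd1 at -0.79, both called. The part of the clock in the Gnmt and Mthfd1 values was not tested. The hour of collection is not given in the sources used here. On WD 2 of 8 macrophage markers and 2 of 6 stellate cell markers were called higher and 2 of 6 periportal markers lower (Hal and Gls2). Tat of the 5 hepatocyte markers was called lower and Nkg7 of the lymphocyte list higher. The endothelial list had 1 called higher (Lyve1) and 1 lower (Kdr), and so did the pericentral list (Lect2 and Cyp1a2). The macrophage sums were 247 to 364 CPM against 188 to 234 CPM on chow, and the part of these markers in the Gnmt and Mthfd1 values was not tested.

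**Figure D4:**
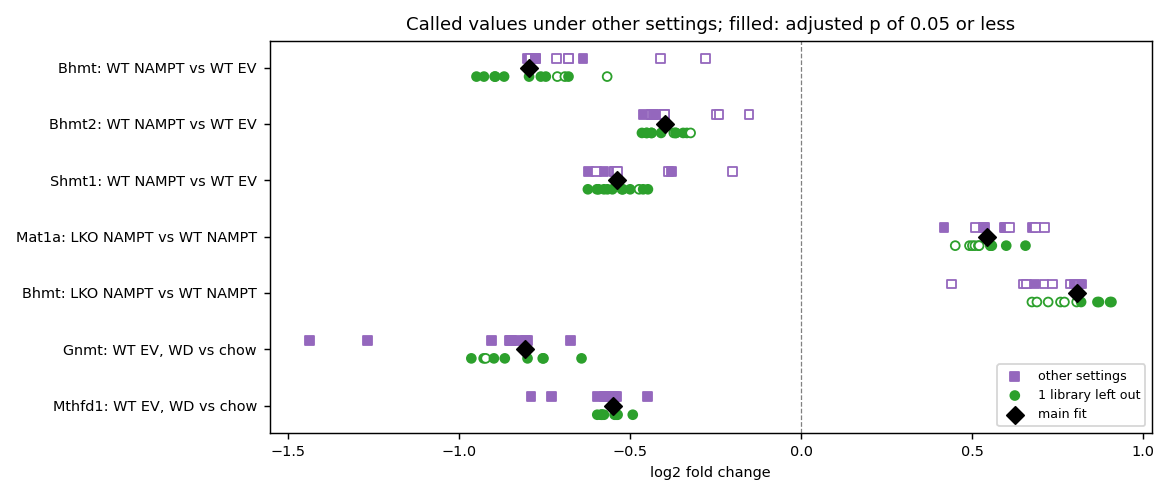
The 7 called log2 fold changes (black diamonds, horizontal axis) beside their values in 10 other settings (purple squares) and in fits that each left out 1 library (green circles), filled where the adjusted p was 0.05 or less. No value crosses 0, the diet rows are filled almost throughout, and the 5 rows of the NAMPT comparisons hold many open symbols.

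Around the members, 87 genes of neighbouring reactions were sorted into 9 lists, of which 84 were kept for testing. In WT NAMPT against WT EV 23 of them were called, 6 higher and 17 lower, a share of 27.4% beside 13.4% for all genes. Choline and betaine oxidation, the steps on both sides of BHMT, had 3 of 6 genes called, all lower. Dmgdh, which oxidizes the dimethylglycine that BHMT releases, fell from 376 ± 74.3 to 256 ± 103 CPM (SD, n = 6 each), or a log2 change of -0.64 ± 0.15 (SE, adjusted p of 0.0127). Etfdh, which takes up the electrons of that step, fell by 0.43 ± 0.10 on the log2 scale (adjusted p of 0.0121), and Pipox, which oxidizes pipecolate and sarcosine, by 0.46 ± 0.15 (adjusted p of 0.0425).

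Cysteine handling had 3 genes called lower and 1 higher of 12. Cdo1, the dioxygenase that starts cysteine breakdown, fell from 1204 ± 176 to 723 ± 211 CPM (SD, n = 6 each), or a log2 change of -0.77 ± 0.15 (SE, adjusted p of 0.00754). Gclc, the catalytic subunit for the first step of glutathione synthesis, fell by 0.55 ± 0.16 on the log2 scale, and Gss of the next step, named after its values were seen, was the 1 gene called higher, at 0.35 ± 0.11. Choline phospholipid synthesis had 3 of 9 called, all lower: Chpt1 at -0.69 ± 0.18, Selenoi at -0.49 ± 0.11 and Cept1 at -0.34 ± 0.11 (log2 fold change ± SE), the 3 transferases of the last step of the CDP-choline and CDP-ethanolamine routes. Of the 12 cytosolic folate genes Fpgs, which adds the glutamate tail that keeps folate in the cell, fell by 0.61 ± 0.10 and the folate transporter Slc46a1 by 0.33 ± 0.09 on the log2 scale.

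Other lists held genes called higher. Of 5 serine genes tested 2 were called higher, Psat1 of serine synthesis at 1.69 ± 0.47 and Sdsl of serine breakdown at 1.07 ± 0.26 (log2 fold change ± SE), and the serine racemase Srr was called lower at -0.43 ± 0.08. Psat1 was low and uneven, at 0.748 ± 0.396 CPM in WT EV and 3.87 ± 4.01 CPM in WT NAMPT (SD, n = 6 each), and its log2 fold change ran from 0.36 to 2.39 over the alternative settings, with a call in 6 of 10. In the mitochondrial folate list Mthfd2 rose by 1.32 ± 0.35 on the log2 scale, from 1.35 ± 0.55 to 3.47 ± 2.02 CPM (SD, n = 6 each), and its log2 fold change ran from 0.49 to 1.63 over those settings, with a call in 6 of 10. Amt and Gcsh of the glycine cleavage system fell by 0.36 ± 0.08 and 0.27 ± 0.08 on the log2 scale. Among the users of methyl groups Gamt fell by 0.39 ± 0.10 and Coq5 of ubiquinone synthesis by 0.32 ± 0.10, while the DNA methyltransferase Dnmt3a rose by 0.53 ± 0.13 on the log2 scale. The polyamine enzyme Sat1 rose by 0.49 ± 0.16, which turned to -0.0057 with 2 surrogate variables. In the remaining methionine cycle list 1 of 6 was called, Ahcyl1, at -0.28 ± 0.07. Most of these calls depended on the fit. Of the 22 genes the rule names, Fpgs and Cdo1 were called in all 10 alternative settings, while Cept1 was called in 1, Pipox, Slc46a1, Gcsh and Mpst in 2, Sat1 in 3, and Gclc, Ahcyl1 and Coq5 in 4. Dmgdh was called in 5 and ranged from -0.77 to -0.15, and Pipox ranged from -0.53 to -0.067.

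**Figure D5:**
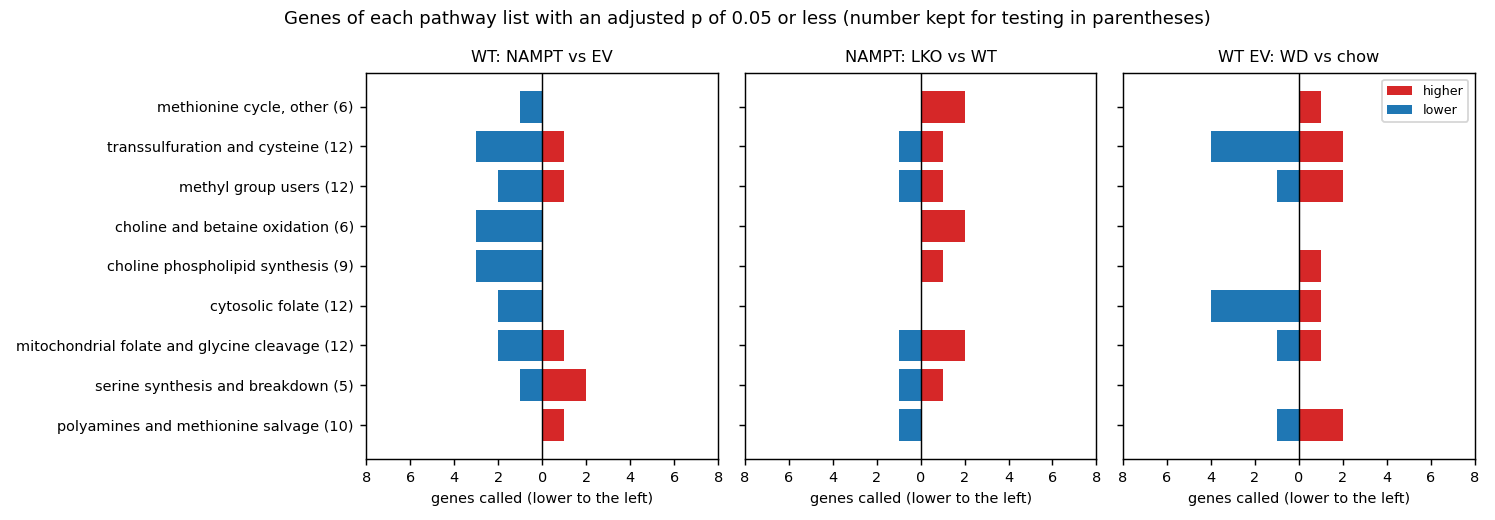
Number of genes called higher (red, to the right) and lower (blue, to the left) in each of the 9 pathway lists for NAMPT against EV in WT, LKO against WT under NAMPT, and WD against chow, with the genes tested per list in parentheses. Choline and betaine oxidation has 3 of 6 called lower in the first panel and 2 of 6 called higher in the second.

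The limma fit called 0 of the 84 list genes for the vector in livers labelled LKO, 0 for the interaction and 0 for LKO EV against WT EV. In each of these comparisons only 0.00711% of all genes were called. A count of 0 would be likely for any list of this size, and nothing about these genes is read from it. Between the NAMPT groups 15 were called, 10 higher and 5 lower in LKO, a share of 17.9% beside 7.96% for all genes. They included Dmgdh at 0.57 ± 0.16 and Etfdh at 0.41 ± 0.10 of betaine oxidation, Adk, which clears the adenosine that AHCY releases, at 0.42 ± 0.12, and Cdo1 at 0.53 ± 0.16 (log2 fold change ± SE). Mthfd2 and Sdsl were lower, at -1.34 ± 0.36 and -1.10 ± 0.27. Each of the 15 was called in 2 to 6 of the 10 alternative settings and in 4 to 7 of the 11 fits that left out 1 library. These groups again share the WT NAMPT livers with the first comparison.

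On WD against chow 21 of the 84 were called, 10 higher and 11 lower, a share of 25% beside 22% for all genes. The largest falls named by the rule were in transsulfuration and cysteine use. Cth, which releases cysteine from cystathionine, fell from 742 ± 248 CPM on chow (SD, n = 3) to 189 ± 59.5 CPM on WD (SD, n = 6), or a log2 change of -1.78 ± 0.23 (SE, adjusted p of 6.53e-06). Csad, which leads to taurine, fell from 355 ± 31.9 CPM on chow (SD, n = 3) to 85.4 ± 44.2 CPM on WD (SD, n = 6), or a log2 change of -2.23 ± 0.29 (SE). In the cytosolic folate list Aldh1l1, which removes formyl units from the pool MTHFD1 serves, fell by 0.70 ± 0.15 and Fpgs by 0.68 ± 0.11 on the log2 scale. Mtr, the folate-dependent enzyme that remethylates homocysteine beside BHMT, rose by 0.45 ± 0.10, and Chpt1 rose by 0.69 ± 0.19 on the log2 scale. Cth, Csad, Aldh1l1, Fpgs and Mtr were called in all 10 alternative settings and Chpt1 in 7.

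Across all 25 libraries the gene whose log2 CPM followed each member most closely was found by Pearson's r, as a description in which all points share their libraries and groups. For Gnmt it was Asl (r of 0.957), for Mthfd1 Aldh1l1 (0.955) and for Shmt1 Car5a (0.958), with Shmt2, the mitochondrial serine hydroxymethyltransferase, next at 0.954. For Mat1a it was Cyp4a10 (0.897), for Bhmt2 Ido2 (0.936), for Pemt Mtch2 (0.891) and for Mat2a Exoc2 (0.734). For Bhmt and Ahcy the first genes were Gm5096 (0.956) and Gm4737 (0.957), the copies that share 50-base stretches with them. Dmgdh was next for Bhmt (0.918), and Gm9826 and then Marc1 (0.931) for Ahcy.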

How the data were processed

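Poly-A RNA-seq was measured in 25 livers, with reads of 50 bases aligned by STAR 2.5.1a and counted by featureCounts 1.4.6-p5 on GRCm38, per the submitters' processing notes. The paper's methods name other versions, and the strand setting is not given in the sources used here. The authors deposited raw counts per gene, with CPM and RPKM values beside them. The deposited CPM and RPKM were recomputed from the counts, deviated by at most 5.9e-14, and were used no further. Totals per library were 20166175 to 32937326 counts, and their number limits precision.

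Identifiers were paired with symbols for 40254 of 41388 genes. Genes above 1 CPM in at least 2 libraries were kept, less 4 genes for ribosomal RNA, giving 14065. Counts were scaled by TMM (edgeR 4.0.16) and fitted with limma 3.58.1 (voomWithQualityWeights, R 4.3.3) over all 5 groups, with Benjamini-Hochberg adjustment over all genes and calls at an adjusted p of 0.05. The paper's methods name voomWithQualityWeights, while elsewhere it names the exact test of edgeR, which was not run here. The legend of its figure on these livers gives 3 mice each for WT EV, WT NAMPT and LKO NAMPT on WD. Here 6, 6 and 5 libraries of these groups were fitted. Which libraries the paper used is not stated. The edgeR quasi-likelihood test and DESeq2 1.42.0 were alternatives, as were surrogate variables from sva 3.50.0, other scalings and filters, other sets of samples, a replicate block and a clock-gene score. Figures were drawn with matplotlib 3.10.9. Libraries are from separate mice, and the closest pair within a group differed by a chi-square of 15.1 per degree of freedom. The fit was tested on simulated data with known changes. All 9 members are named. From each pathway list the rule takes up to 3 called genes with the smallest adjusted p per comparison. All of these are named for WT NAMPT against WT EV, and only some for LKO NAMPT against WT NAMPT and for WD against chow. For likeness the 3 genes with the highest Pearson's r of log2(CPM + 0.5) were taken, and the first and some of the others are named. Sirt1 and Nampt are named as label checks and called markers as context. The members and lists were chosen with earlier results of these data known. Of the 87 pathway genes Prmt1 was not paired with an identifier and Pcyt1b and Phgdh were not kept. Transcript stretches came from GENCODE M21, and promoter windows and their motifs from RefSeq.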

Additional observations from a re-analysis of the deposited data

How the results depend on the processing

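For WT NAMPT against WT EV, members called went from 3 to 0 in the edgeR quasi-likelihood test, without sample quality weights, with only the groups compared and with 2 surrogate variables, and to 7 with the clock-gene score. For LKO NAMPT against WT NAMPT they went from 2 to 0 in those 4 settings and without a filter on low counts, to 1 in DESeq2, and to 4 with the clock-gene score. The clock-gene score also gave 1 for the interaction and 4 for WD against chow, where its chow and WD ranges did not overlap. Leaving out 1 library at a time gave 0 to 6 for WT NAMPT against WT EV, 0 to 4 for LKO NAMPT against WT NAMPT, 0 to 2 for the interaction and 1 to 3 for WD against chow. The 6 came without WT EV replicate 1 or WT NAMPT replicate 4, and the 0 without WT EV replicate 2 or WT NAMPT replicate 3. Counts over all genes moved as widely: 1890 called for WT NAMPT against WT EV became 79 to 2610 in the alternatives, 1120 for LKO NAMPT against WT NAMPT became 12 to 1659, 3101 for WD against chow became 1201 to 3842, and 1 for the interaction became 0 to 465. LKO NAMPT against LKO EV went from 1 to between 0 and 6 and LKO EV against WT EV from 1 to between 0 and 15, and neither called a member in any setting. The cause of these moves was not tested.

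Replicate numbers did not pair the samples, since the correlations of same-numbered deviations ran from -0.32 to 0.37. With the replicate block, members called were 0 for WT NAMPT against WT EV, where Bhmt was at -0.41, 1 for LKO NAMPT against WT NAMPT and 4 for WD against chow, where Gnmt was at -1.27. The block reversed Mat2a (0.085) and Gnmt (0.040) in WT NAMPT against WT EV, Gnmt (-0.017) and Mthfd1 (-0.016) in LKO NAMPT against LKO EV, and Gnmt (-0.057) in the interaction. In LKO EV against WT EV it reversed Ahcy (0.24), Gnmt (0.17), Mat2a (0.035), Bhmt (0.029), Shmt1 (0.043) and Mthfd1 (0.037).

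No called member changed direction in any setting. Members not called did, most of them with main values near 0. Larger main values that turned included Mat1a (0.25) and Bhmt (-0.26) in WD against chow and Bhmt (-0.34) in LKO EV against WT EV. The called list gene Sat1 (0.49) also turned in WT NAMPT against WT EV. In WT NAMPT against WT EV Mat2a turned to 0.10 in the quasi-likelihood test, 0.10 in DESeq2, 0.088 without weights, 0.14 by library size only, 0.033 without a filter and 0.032 with the clock score, and Gnmt to 0.10 with surrogate variables. In LKO NAMPT against LKO EV Gnmt turned to -0.023 (quasi-likelihood), -0.032 (DESeq2), -0.0030 (RLE), -0.023 (no filter), -0.012 (only the groups compared) and -0.087 (clock score). There Mthfd1 turned to -0.00041 (quasi-likelihood), -0.0096 (DESeq2), -0.010 (no filter), -0.0043 (only the groups compared) and -0.027 (clock score), while surrogate variables turned Ahcy to 0.10 and Shmt1 to 0.078. Pemt in the interaction turned to -0.072 by library size only and -0.10 with surrogate variables. In LKO NAMPT against WT NAMPT Gnmt turned to -0.042 by library size only and Mat2a to -0.017 with surrogate variables. In LKO EV against WT EV Ahcy turned to 0.016 without weights, 0.017 without a filter and 0.084 with surrogate variables, and Shmt1 to 0.0046 with the last. In WD against chow Shmt1 turned to 0.046 in the quasi-likelihood test, 0.052 in DESeq2, 0.042 without weights, 0.028 without a filter and 0.17 with surrogate variables, Bhmt to 0.045 with the last and Mat1a to -0.17 with the clock score. Sat1 in WT NAMPT against WT EV turned to -0.0057 with surrogate variables. Scaling by library size only moved the median of all genes by 0.15 in WT NAMPT against WT EV, -0.14 in the interaction and -0.11 in LKO NAMPT against WT NAMPT.

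Leaving out 1 library at a time gave -0.084 to 0.14 for Mat2a in WT NAMPT against WT EV. In LKO NAMPT against LKO EV the ranges were -0.022 to 0.14 for Mat1a, -0.088 to 0.11 for Gnmt, -0.11 to 0.077 for Ahcy, -0.088 to 0.0048 for Shmt1 and -0.027 to 0.053 for Mthfd1. They were -0.00085 to 0.23 for Mat2a and -0.0025 to 0.13 for Pemt in the interaction, and -0.028 to 0.20 for Mat2a and -0.031 to 0.20 for Gnmt in LKO NAMPT against WT NAMPT. They were -0.093 to 0.062 for Mat2a and -0.17 to 0.10 for Ahcy in LKO EV against WT EV, and -0.49 to 0.12 for Bhmt and -0.074 to 0.12 for Shmt1 in WD against chow. The diet comparison rests on 3 chow libraries.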
